A study of Mus musculus with 12 samples.

Results

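The expression of 10 genes of the circadian clock was examined in the ventral hippocampus of mice treated with corticosterone. They were taken by gene symbol from the deposited tables of expression, and all 10 of 10 were among the 17564 genes measured. They are Arntl and Clock, the activators of the clock, their repressors Per1, Per2, Per3, Cry1 and Cry2, the nuclear receptors Nr1d1 and Nr1d2, and the output factor Dbp. RNA-seq had been performed on 12 libraries in 4 groups of 3, WT and BDNF het-Met mice given either VEH or CORT. WT mice carried both wild-type copies of Bdnf, the gene of brain-derived neurotrophic factor. BDNF het-Met mice were knock-in heterozygotes for the Val66Met substitution in the pro-region of BDNF, a change present in every cell that expresses the gene. All mice were males on a C57BL/6 background, and all drank 1% ethanol for 6 weeks from 2 months of age. CORT mice received corticosterone, the main glucocorticoid of rodents, at 25 mg/l in that drink, whereas VEH mice received the ethanol alone. Each library pooled the RNA of 2 animals. The replicates are therefore pools, and the p-values below measure the spread between pools.

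The clock is a loop of transcription and repression that takes about a day. CLOCK and ARNTL (also called BMAL1) form a dimer that binds E-box sequences and drives the Per and Cry genes, whose proteins return to the nucleus and repress that dimer. In a second loop the dimer drives Nr1d1 and Nr1d2, which encode the haem-binding repressors REV-ERB alpha and REV-ERB beta, and these repress Arntl at elements that the ROR activators also bind. Dbp, an albumin D-site binding protein, is a direct E-box target that carries the rhythm to genes with D-box sequences. The master clock sits in the suprachiasmatic nucleus, and glucocorticoids, which rise and fall daily, are among the signals that set clocks elsewhere in the body, partly through glucocorticoid receptor elements near Per genes. The mice were killed within 1 window of the light phase, so a change in level cannot be told apart from a change in the timing of a rhythm.

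Promoter sequences of 4 members are given here so that the results can be read beside them. RefSeq start sites on GRCm38.p6 were available for 9 of the 10 members and gave 13 windows, each reaching from 250 bases before the start to 50 after it. The bases printed are those of a window that lie before the start and outside any annotated exon, 5′ to 3′ on the strand of the gene, with motif matches in capitals. Dbp is shown for the largest change, Nr1d2 for its fall across genotypes, Per1 for an E-box and Per3 for D-boxes.
Dbp, chr7:45704997-45705087, plus strand: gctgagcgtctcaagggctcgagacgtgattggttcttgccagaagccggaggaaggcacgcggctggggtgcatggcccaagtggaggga
Nr1d2, chr14:18239128-18239356, minus strand: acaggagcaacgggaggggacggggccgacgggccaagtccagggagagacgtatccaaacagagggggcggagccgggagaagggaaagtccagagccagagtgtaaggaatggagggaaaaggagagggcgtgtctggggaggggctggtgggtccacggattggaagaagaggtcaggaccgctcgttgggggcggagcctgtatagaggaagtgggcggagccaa
Per1, chr11:69098699-69098947, plus strand: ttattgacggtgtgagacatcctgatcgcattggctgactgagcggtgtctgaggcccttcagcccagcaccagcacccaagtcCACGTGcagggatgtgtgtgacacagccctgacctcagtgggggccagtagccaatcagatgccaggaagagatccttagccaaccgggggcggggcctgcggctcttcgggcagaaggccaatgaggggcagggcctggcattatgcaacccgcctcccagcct
Per3, chr4:151044666-151044915, minus strand: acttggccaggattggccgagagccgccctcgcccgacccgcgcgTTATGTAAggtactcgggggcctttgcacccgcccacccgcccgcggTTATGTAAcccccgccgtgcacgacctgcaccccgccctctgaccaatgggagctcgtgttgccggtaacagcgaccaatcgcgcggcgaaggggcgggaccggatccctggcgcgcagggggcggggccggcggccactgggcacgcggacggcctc

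Both strands of all 32851 RefSeq windows were searched for the same motifs. The E-box CACGTG, which is bound by the CLOCK and ARNTL dimer, was in 7.15% of all windows. Among the members it was in the printed window of Per1, at positions -166 to -161 relative to the start used there, and in Cry1. A further window of Per1, from position 69099902, held no E-box. Both Per1 windows lie inside the annotated span of the gene, which begins at 69095217. The variant CACGTT was in 4.68% of all windows and in Cry1, Cry2 and Nr1d1. The D-box TTANGTAA was in 2.32% of all windows and in Per3 alone among the members, where 2 copies began at positions -205 and -158. The ROR element was in 0.384% of all windows. Among the members it was in Arntl, as AAAGTAGGTCA at chr7:113207537-113207547, 26 to 36 bases after the start used. No match to the glucocorticoid receptor element ACANNNTGT, found in 6.85% of all windows, or to the cyclic AMP element TGACGTCA, found in 1.79%, lay in a member's window. A match is a run of letters only and is no evidence of binding, and elements farther from the start were not searched.

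All members were expressed at a moderate or high level. Their mean over the fitted libraries ran from 3.47 log2 CPM for Cry1 to 7.03 log2 CPM for Cry2, against a median of 3.87 log2 CPM for all genes. Per kilobase of exon, which allows genes to be compared, the highest level was that of Nr1d1 at 29.7 CPM per kb. Cry2 followed at 20.7 CPM per kb and Nr1d2 at 16.9 CPM per kb. Per1 at 10.98, Dbp at 10.2 and Clock at 8.75 CPM per kb formed a middle group. Per2 was at 5.26 CPM per kb, and Per3 at 3.33, Cry1 at 3.32 and Arntl at 3.24 CPM per kb were lowest. The activator Arntl was thus listed below its partner Clock, and Cry1 below its paralog Cry2. These are means over all 4 groups with no spread of their own, so neighbours in this order were not tested against each other. The mean was taken on the log scale.

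**Figure D1:**
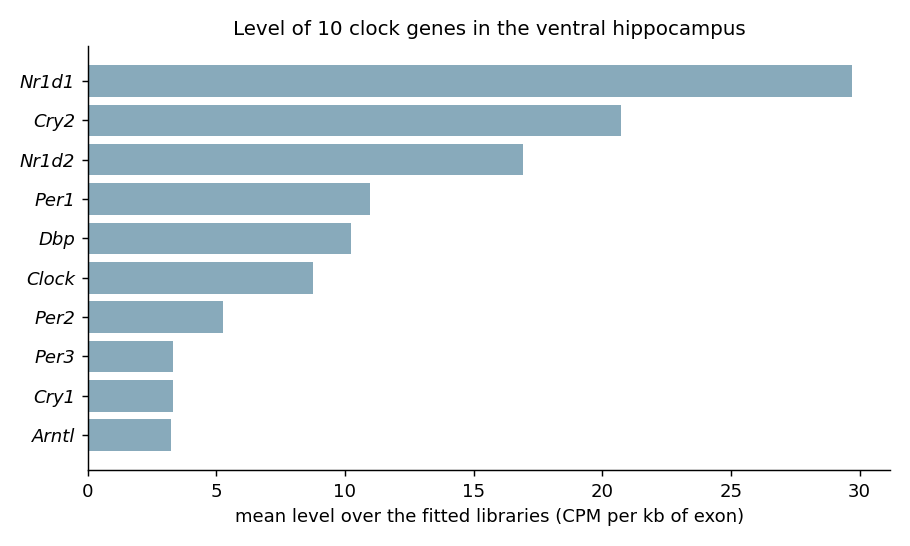
Mean level of each clock gene over the fitted libraries of all groups, in CPM per kb of exon, as 1 bar per gene in order of level. Nr1d1 was highest at 29.7 CPM per kb and Arntl lowest at 3.24 CPM per kb.

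The tables analysed hold, for each gene and genotype, a fitted log2 fold change between CORT and VEH with its error, and no value for a single library or group. The values of replicates cannot be shown, and the number of reads counted per library is unknown (35 to 40 M were planned). All fold changes below are on the log2 CPM scale of the fit and are positive where a gene was higher under CORT. A gene is said to have passed where its uncorrected p, from limma or from its errors, was below 0.05. Errors are limma's moderated ones, which borrow from all genes, and the ordinary standard error mentioned in places rests on the gene's own residual spread. A value of 7 residual degrees of freedom was listed, which with 4 groups leaves 11 libraries rather than 12. The standard error was larger in WT than in BDNF het-Met for 99.5% of genes, with a median ratio of 1.12, the ratio that 5 WT and 6 BDNF het-Met libraries would give. Outlier libraries were removed by clustering for the co-expression networks of the study, and whether a library was also left out of this fit is not given in the sources used here. Fkbp5, a co-chaperone that glucocorticoid receptors induce, was higher under CORT by 0.21 ± 0.09 (SE) in WT and 0.43 ± 0.08 in BDNF het-Met. The targeted gene Bdnf differed by -0.03 ± 0.09 in WT and by 0.33 ± 0.08 in BDNF het-Met under CORT, and its alleles are not resolved here.

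In WT mice 2 of the 10 clock genes passed, both with a lower level under CORT. Dbp was lowered to 76.9% of VEH and Nr1d2 to 88.8% of VEH at an uncorrected p below 0.05, and the other 8 members did not pass. Both were lower, as were 1.57% of all genes by that test, and no member was higher, as were 2.25%. None of the 10 was a DEG, a gene whose fold change also exceeds 1.3. Over all genes 1.25% were DEGs in WT, and 3.83% passed the p alone. The members ran from -0.38 for Dbp to 0.05 for Cry2, 6 of them below 0 and 4 above. Their median was -0.03, against -0.003 for all genes. The adjusted p of limma was 0.999 for every member in WT, the lowest value of any gene there.

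In BDNF het-Met mice more members passed than in WT, as did more of all genes (13.2% against 3.83%), and most of those members were lower. Dbp fell to 60.9% of VEH and was the only DEG among the 10, while 3.24% of all genes were DEGs and 2.52% were DEGs with a lower level. Without the minimum fold change, Per1, Nr1d1, Nr1d2 and Dbp were lower and Clock was higher, which is 5 of 10 members against 13.2% of all genes (6.64% lower and 6.55% higher). The other 5, Arntl, Per2, Per3, Cry1 and Cry2, did not pass. The members ran from -0.72 for Dbp to 0.15 for Clock. Their median was -0.10, against -0.006 for all genes. No gene of the table passed an adjusted p of 0.05 in either genotype, and the lowest adjusted p of a member was 0.189, for Dbp in BDNF het-Met.

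**Figure D2:**
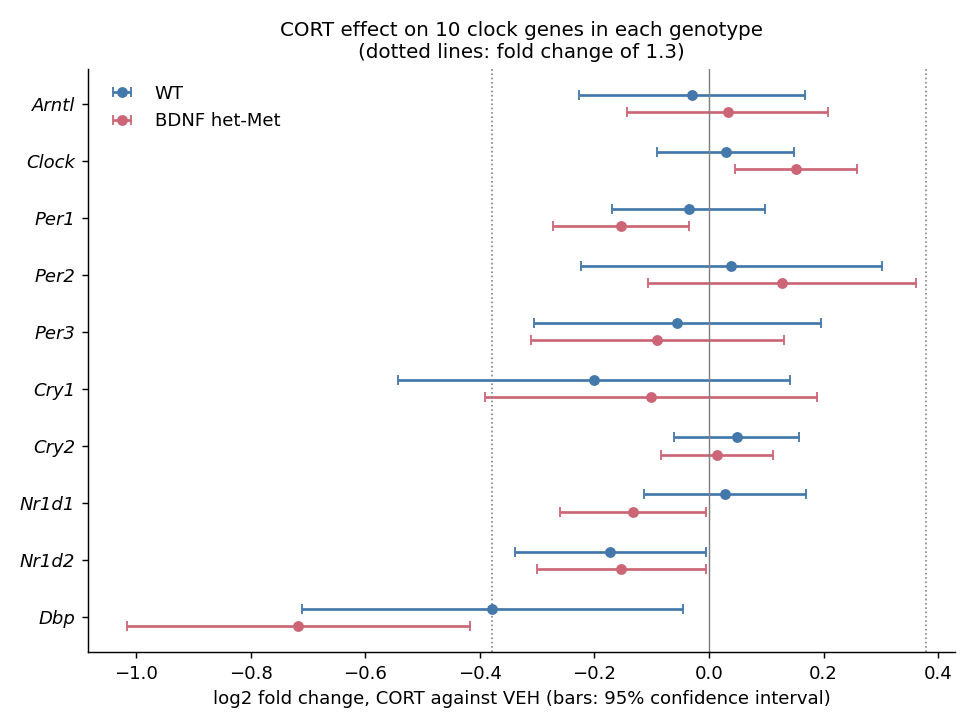
Log2 fold change of each clock gene, CORT against VEH, for WT and for BDNF het-Met mice, with 95% confidence intervals of the limma fit as bars and the fold change of 1.3 as dotted lines. Dbp lies farthest from 0 in both genotypes, at -0.38 in WT and -0.72 in BDNF het-Met, and the other 9 genes lie within 0.21 of 0.

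Dbp, a PAR bZIP transcription factor on chromosome 7 (45705088 to 45710203, plus strand, GRCm38), had the largest difference of any member. In BDNF het-Met it fell by 0.72 ± 0.14 (SE; limma, adjusted p = 0.189), with a 95% confidence interval of 49.5 to 74.9% of VEH. Its uncorrected p had rank 22 among the 17564 genes. In WT it was lower by 0.38 ± 0.15, with an interval of 61.1 to 96.9% of VEH, which passed with the moderated and not with the ordinary standard error. The fold change in WT just missed the minimum, at 0.3781 against 0.3785 on the log2 scale, so that its absence from the DEGs of WT rests on the position of that line. Over both genotypes Dbp was lowered by 0.55 ± 0.10, to 68.4% of VEH (58.6 to 79.9%; adjusted p = 0.122), at rank 32 of all genes.

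Exons of Dbp and of Sphk2, a sphingosine kinase on the opposite strand, share 539 bases, which is 18.0% of the exon bases of Dbp. Per the labels a stranded kit was used, but the strand setting of the counting is not given in the sources used here. Sphk2 was at 0.11 ± 0.08 in WT and 0.15 ± 0.07 in BDNF het-Met, and passed in neither. Its mean effect over both genotypes was 0.13 ± 0.05, past an uncorrected p of 0.05. Whether reads of Sphk2 entered the counts of Dbp was not tested. The D-box relatives of Dbp did not pass in either genotype or by the mean effect. Their mean effects were -0.04 ± 0.04 for Tef, -0.09 ± 0.07 for Hlf and -0.11 ± 0.10 for Nfil3, the last of which encodes a repressor at the same sequences. All 3 were below 0 in both genotypes.

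Of the REV-ERB genes, Nr1d2 passed in both genotypes and Nr1d1 in BDNF het-Met. Nr1d2, encoding REV-ERB beta (chromosome 14, 18204054 to 18239127, minus strand), was lower to a like extent in both genotypes, by 0.17 ± 0.08 in WT (79.1 to 99.6% of VEH) and 0.15 ± 0.07 in BDNF het-Met (81.2 to 99.7% of VEH). Both intervals end just short of no change, and neither value passed with the ordinary standard error. The mean effect over both genotypes was -0.16 ± 0.05, or 89.4% of VEH (82.7 to 96.5%; adjusted p = 0.239), and it passed an uncorrected p of 0.05 with either standard error. Nr1d1, encoding REV-ERB alpha (chromosome 11, 98767932 to 98775333, minus strand), was at 0.03 ± 0.06 in WT, which did not pass. In BDNF het-Met it was lower by 0.13 ± 0.06 (83.5 to 99.6% of VEH), and this passed with the moderated standard error and not with the ordinary one. Its mean effect of -0.05 ± 0.04 did not pass. Nr1d1 shares 263 exon bases (8.55% of its own) with Thra, the thyroid hormone receptor alpha gene on the opposite strand. Thra was at 0.00 ± 0.06 in WT and -0.10 ± 0.05 in BDNF het-Met, and passed in neither.

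Of the activators, Clock alone passed a test. This gene, which encodes the partner of ARNTL in the dimer (chromosome 5, 76209868 to 76304792, minus strand), was at 0.03 ± 0.05 in WT. In BDNF het-Met it was higher by 0.15 ± 0.05 (limma, adjusted p = 0.275), or 111% of VEH (103 to 120%). Its mean effect was 0.09 ± 0.04, or 106% of VEH (100.7 to 113%). Strongly expressed genes as a whole were shifted upward, the median in the highest quintile of expression being 0.02 for WT and 0.03 for BDNF het-Met. With that shift subtracted the mean effect of Clock was 0.06 and no longer passed, although the value in BDNF het-Met still did. Arntl (chromosome 7, 113207465 to 113314126, plus strand) was at -0.03 ± 0.09 in WT and 0.03 ± 0.08 in BDNF het-Met. The interval of its mean effect ran from 91.4 to 110% of VEH.

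Among the period genes Per1 alone passed a test. Per1 (chromosome 11, 69095217 to 69109960, plus strand) is an early responder to signals that reset the clock. It was at -0.04 ± 0.06 in WT and was lower by 0.15 ± 0.05 in BDNF het-Met (limma, adjusted p = 0.295), with an interval of 82.8 to 97.7% of VEH. Its mean effect was -0.09 ± 0.04 (88.1 to 99.7% of VEH), which passed with the moderated standard error and narrowly failed with the ordinary one. Per2 (chromosome 1, 91415982 to 91459324, minus strand) was above 0 in both genotypes, at 0.04 ± 0.12 in WT and 0.13 ± 0.11 in BDNF het-Met (92.9 to 128% of VEH). Per3 (chromosome 4, 151003652 to 151044665, minus strand) was below 0 in both, at -0.05 ± 0.11 and -0.09 ± 0.10 (80.6 to 110% of VEH in BDNF het-Met). The period genes thus did not share a sign.

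Neither cryptochrome passed a test. Cry1 (chromosome 10, 85131700 to 85185064, minus strand), the member with the lowest mean log2 CPM, was at -0.20 ± 0.15 in WT and -0.10 ± 0.13 in BDNF het-Met. The interval of its mean effect, 77.1 to 105% of VEH, leaves room for a fall as large as that of Nr1d2. Cry2 (chromosome 2, 92403646 to 92434043, minus strand) had the smallest errors of the 10, at 0.05 ± 0.05 for WT and 0.01 ± 0.04 for BDNF het-Met. With the shift of its expression quintile subtracted the latter was -0.02. Its mean effect lay between 97.1 and 108% of VEH. To pass at an uncorrected p of 0.05, a fold change in BDNF het-Met had to reach 0.10 for Cry2 and 0.30 for Dbp, and in WT 0.11 for Cry2 and 0.34 for Cry1.

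Averaged over both genotypes, which uses all fitted libraries and no library more than once, 4 of the 10 members passed an uncorrected p of 0.05, against 13.3% of all genes. Nr1d2, Per1 and Dbp were lower (lower genes were 6.18% of all) and Clock was higher (7.17% of all). The lowest adjusted p of a member was 0.122, for Dbp, and 13 genes of the table (0.074%) passed an adjusted p of 0.05, with 0.0431 as the smallest. The median of the mean effect was -0.06 over the members and -0.005 over all genes. Of the 10 members 8 had the same sign in both genotypes, compared with 62.5% of all genes. Of these 5 were lower in both (32.7% of all genes) and 3 higher, and Arntl and Nr1d1 had opposite signs. Only Nr1d2 and Dbp were past an uncorrected p of 0.05 in both genotypes, as were 1.52% of all genes.

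The joint F test over 3 contrasts, which spans both CORT comparisons and a contrast between genotypes, passed an uncorrected p of 0.05 for Dbp and Clock, or 2 of the 10, against 7.43% of all genes. F was 11.7 for Dbp (adjusted p = 0.418) and 4.19 for Clock (adjusted p = 0.636).

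No member was shown to respond differently in the genotypes. The difference of the CORT effect, BDNF het-Met minus WT, did not pass for any of the 10 at an uncorrected p of 0.05, and it passed for 2.41% of all genes. The adjusted p was 0.9999 for each. Nr1d1 came closest to the threshold, at -0.16 ± 0.09 (95% confidence interval -0.35 to 0.03). Clock differed by 0.12 ± 0.07 (interval -0.04 to 0.28) and Per1 by -0.12 ± 0.08 (interval -0.30 to 0.06). Dbp differed by -0.34 ± 0.20, and its interval of -0.79 to 0.11 reaches from a fall that is much deeper in BDNF het-Met to a slightly shallower one. The calls made in BDNF het-Met and not in WT for Clock, Per1 and Nr1d1 are therefore not shown to be differences between genotypes. The estimate closest to 0 was that of Nr1d2, 0.02 ± 0.10, with an interval of -0.20 to 0.24.

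**Figure D3:**
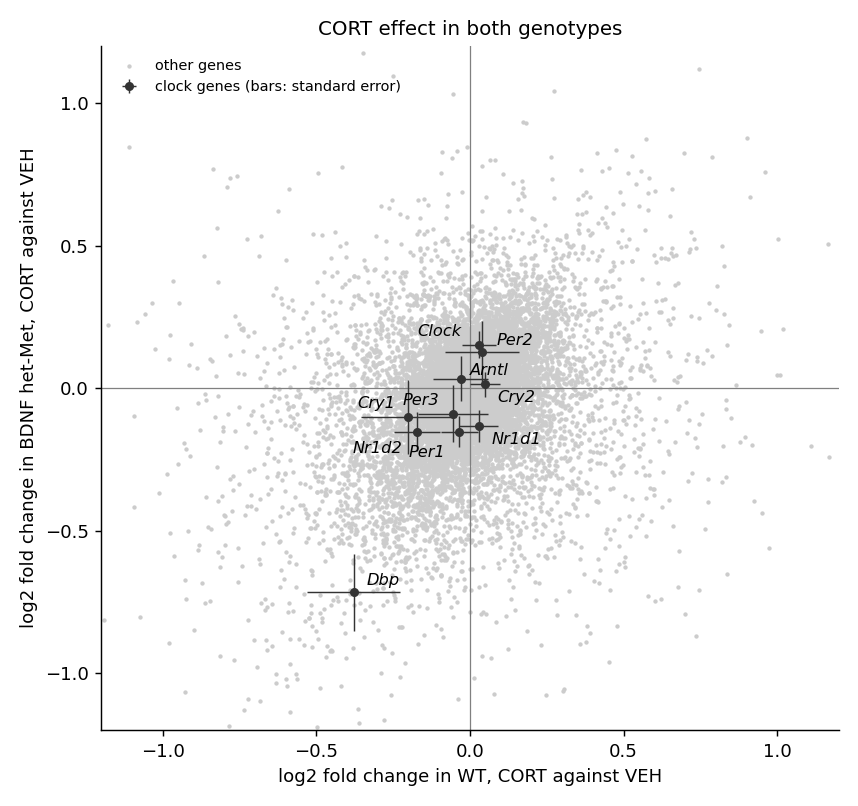
Log2 fold change under CORT in WT (x axis) against BDNF het-Met (y axis) for all genes within 1.2 of 0 (grey; 73 genes lie outside) and for the clock genes (named points). Dbp stands at -0.38 and -0.72, and the other 9 members lie within 0.21 of 0 on both axes.

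The members also differed in how far replicate libraries spread around the fit. This was read from the ordinary and moderated standard errors as the residual SD of each gene relative to the prior SD of the fit, where 1 is the prior. Dbp had the widest spread of the 10, at 2.54, above 94.0% of the genes in its decile of expression. Per2 followed at 1.98, Per3 at 1.88 and Cry1 at 1.75. Nr1d2 was at 1.39, Arntl at 1.29 and Nr1d1 at 1.12. Per1 at 0.962, Clock at 0.875 and Cry2 at 0.748 were below the prior. The median was 1.34 over the members and 1.01 over all genes, and 7 of 10 members were above the median of their decile. In BDNF het-Met the standard errors ran from 0.14 for Dbp and 0.13 for Cry1 to 0.04 for Cry2, with a median of 0.07 over the members.

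**Figure D4:**
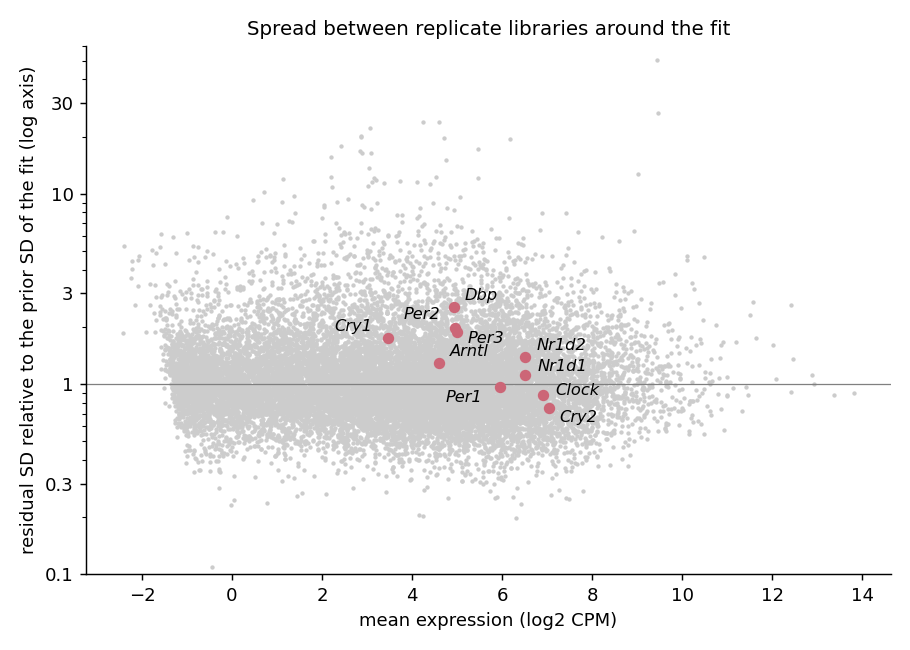
Residual SD relative to the prior SD of the fit (log axis) against mean expression in log2 CPM for all genes (grey) and the clock genes (named points). Dbp is highest at 2.54 and Cry2 lowest at 0.748, with Per2, Per3 and Cry1 between 1.75 and 1.98.

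The wider clock was covered by 41 further genes, all of which were measured. By the mean effect 4 of them passed as higher and 4 as lower, or 0 and 3 with the shift of their expression quintile subtracted and 5 and 3 with the ordinary standard error. Over all genes 7.17% were higher and 6.18% lower by that effect. In WT 0 of the 41 passed as higher and 1 as lower (2.25% and 1.57% of all genes), and in BDNF het-Met 3 and 4 (6.55% and 6.64% of all genes). Their medians were -0.03 in WT and -0.002 in BDNF het-Met, beside -0.003 and -0.006 for all genes. Those that were lower included other E-box repressors. Ciart (also called Chrono), a repressor of the CLOCK and ARNTL dimer, was at -0.16 ± 0.18 in WT and fell by 0.41 ± 0.16 in BDNF het-Met, where it was a DEG. Its mean effect was -0.29 ± 0.12, which passed as deposited and not with the shift of its expression quintile subtracted. Neither value of Ciart passed with the ordinary standard error. Bhlhe41 (DEC2), which competes for E-boxes, fell by 0.26 ± 0.08 in BDNF het-Met, with a mean effect of -0.16 ± 0.06, or 89.5% of VEH. Its paralog Bhlhe40 did not pass, with a mean effect of -0.05 ± 0.04.

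ROR genes encode the activators that REV-ERB opposes. Rora had a mean effect of -0.12 ± 0.06, or 91.7% of VEH, and Rorb was lower by 0.33 ± 0.14 in BDNF het-Met. Neither passed with the ordinary standard error. Of the paralogs of the activators, Npas2, which can take the place of CLOCK, had a mean effect of 0.10 ± 0.07 and Arntl2 of 0.06 ± 0.08, and neither passed. Among 10 kinases, phosphatases and ubiquitin ligases that modify the PER and CRY proteins, Csnk1e, a casein kinase, was the single gene whose mean effect passed with the moderated standard error, at -0.10 ± 0.04. With the ordinary one 2 genes of that list passed as higher and 2 as lower. Fbxw11, a ubiquitin ligase subunit chosen after its values were seen, was higher by 0.12 ± 0.03 in BDNF het-Met and at -0.03 ± 0.04 in WT. It was the only one of the 41 whose difference between genotypes passed an uncorrected p of 0.05, at 0.14 (0.03 to 0.26).

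Among 9 partners of the PER and CRY complex and of chromatin at clock genes, 4 passed as higher by the mean effect and none with the shift of their expression quintile subtracted. They were the acetyltransferases Ep300 (0.16 ± 0.06) and Crebbp (0.09 ± 0.04), the corepressor Ncor1 (0.09 ± 0.04) and the RNA-binding protein Sfpq (0.12 ± 0.05). All 4 are strongly expressed, at 6.46 log2 CPM or more. Among 12 output genes none passed by the mean effect, and Klf9, the most strongly expressed of them, was at -0.04 ± 0.05. Tsc22d3 in WT (-0.26 ± 0.11) and Tspan4 in BDNF het-Met (-0.25 ± 0.09), both named after their values were seen, passed as lower in 1 genotype each.

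**Figure D5:**
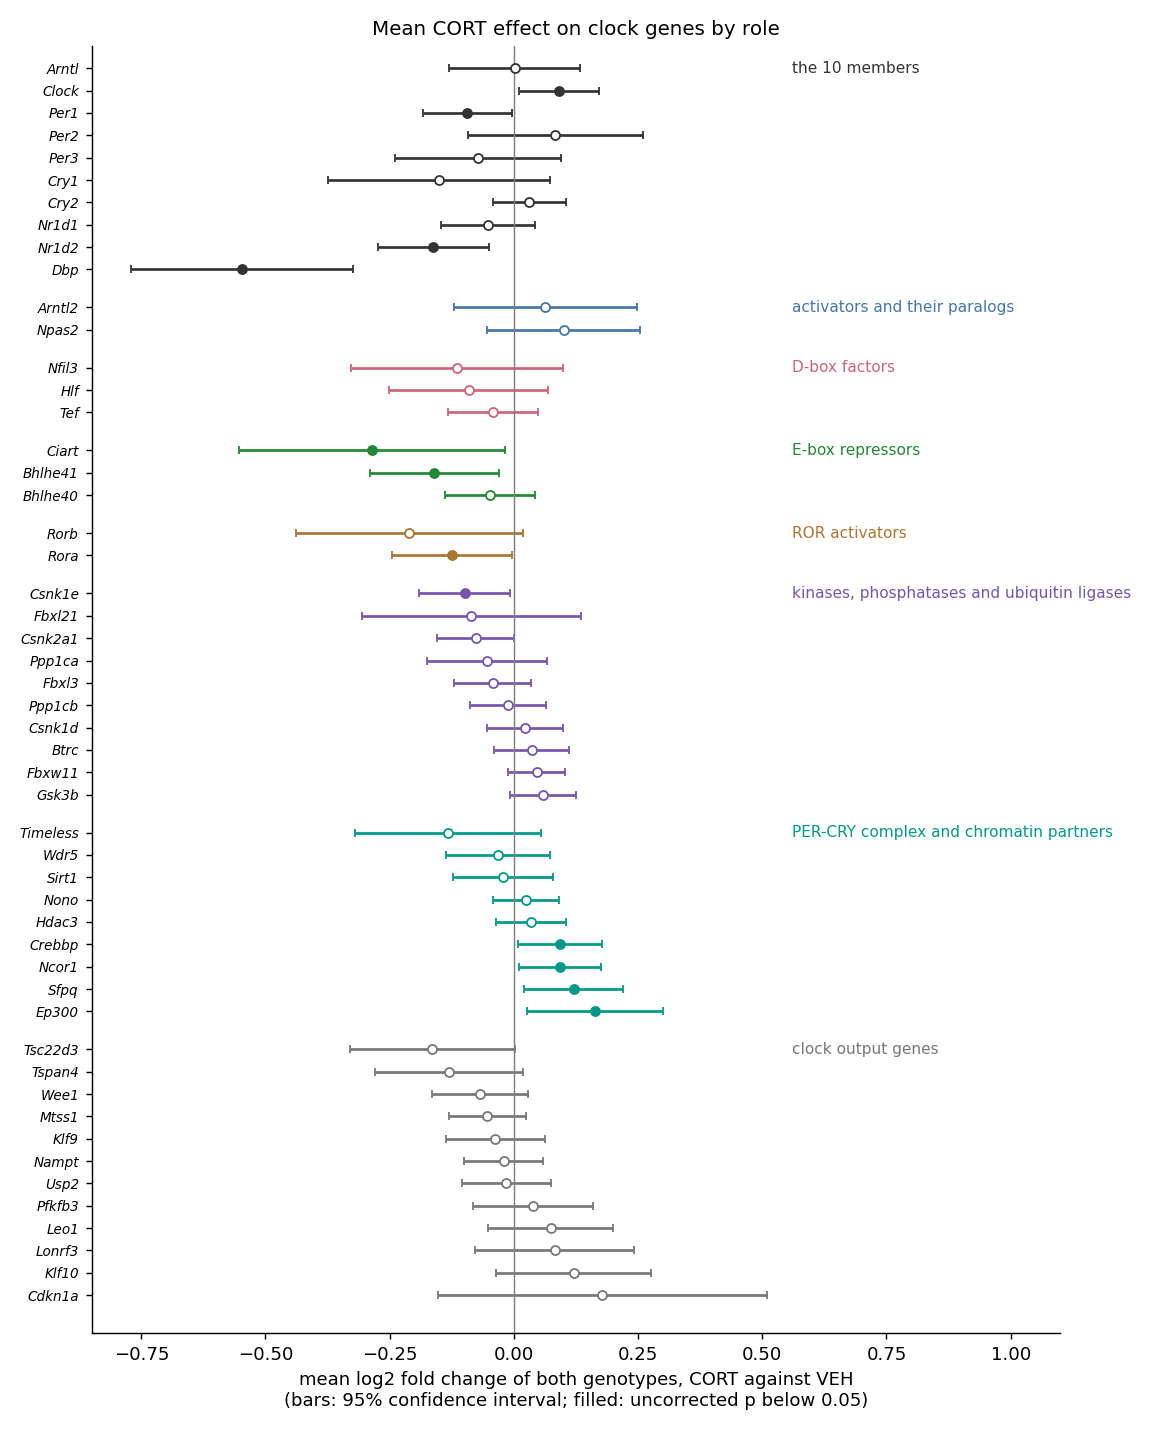
Mean log2 fold change over both genotypes, CORT against VEH, with 95% confidence intervals, for the 10 members and the other clock genes grouped by role; filled points passed an uncorrected p of 0.05. Dbp is lowest at -0.55, with Ciart at -0.29, and the 4 filled points to the right among chromatin partners lie between 0.09 and 0.16, and none of those 4 passed with the shift of its expression quintile subtracted.

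A list of 10 genes that glucocorticoids regulate in many tissues was read beside the clock genes. It shares genes with the list of output genes above, Tsc22d3 and Klf9 among them, so these lists are not independent. By the mean effect Fkbp5 was higher (0.32 ± 0.06) and Nfkbia, an inhibitor of NF-kappa B, was lower (-0.26 ± 0.09), and the other 8 did not pass. In WT 8 of the 10 were below 0, as were 51.1% of all genes, and their median was -0.05. Tsc22d3, which encodes the glucocorticoid-induced leucine zipper protein, passed there as lower (-0.26 ± 0.11) beside the rise of Fkbp5. Neither of these WT values passed with the ordinary standard error. In BDNF het-Met 6 of the 10 were above 0, with a median of 0.03. There 2 passed as higher, Fkbp5 among them as a DEG, and 1 as lower (6.55% and 6.64% of all genes). Per1 itself is known as a glucocorticoid target, and under CORT it stood at 97.6% of the VEH level for WT and 89.95% for BDNF het-Met.

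The cellular make-up of the tissue bears on bulk values, since fewer cells of a type and less RNA per cell cannot be told apart. All 8 hippocampal neuron markers were measured, at 5.01 log2 CPM or above. Of 7 markers of the suprachiasmatic nucleus and hypothalamus only Vip and Rgs16 were in the tables, and Avp, Nms, Prok2, Six6 and Lhx1 were not. Rgs16 was at -0.18 ± 0.14 in WT, which did not pass, and was lower by 0.37 ± 0.12 in BDNF het-Met. Its mean effect was -0.28 ± 0.09, and this and the BDNF het-Met value passed with either standard error. Vip did not pass in either genotype or by the mean effect. In BDNF het-Met, where more members passed than in WT, 5 of 8 microglial markers and 4 of 8 oligodendrocyte markers were lower and none higher, with list medians of -0.43 and -0.35. In the same comparison 3 of 7 astrocyte markers were lower and 2 higher, 2 of 8 hippocampal neuron markers were higher, and 2 of 7 thalamic markers were lower. In WT the corresponding medians were -0.20 for microglia and -0.09 for oligodendrocytes, and no marker of either list passed. The astrocyte markers Aldoc (0.27 ± 0.07) and Aldh1l1 (0.25 ± 0.08) were higher in WT, as was the neuronal marker Calb1 (0.28 ± 0.11), and the astrocyte water channel Aqp4 was lower and a DEG (-0.52 ± 0.13). The 8 choroid plexus markers had medians of -1.15 (WT) and 0.16 (BDNF het-Met), and the 5 blood markers of 0.58 and 0.64, and no gene of either list passed within a genotype. By the mean effect 3 of the 5 blood markers passed as higher (0 with the ordinary standard error), along with 2 neuronal and 2 astrocyte markers (1 and 2 with that error). Over all genes 7.17% were higher and 6.18% lower by the mean effect. By the same test 5 microglial, 3 astrocyte and 2 oligodendrocyte markers were lower, or 3, 1 and 0 with the ordinary standard error. The endothelial Tek, the thalamic Tnnt1 and Rgs16 were also lower, of which Tek did not pass with the ordinary standard error. No choroid plexus or ventral hippocampus marker passed. The part of these shifts in the values of Dbp, Per1, Nr1d1, Nr1d2 and Clock was not tested.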

How the data were processed

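Per the labels and the methods of the study, the authors aligned reads with STAR to mm10 (GRCm38), used featureCounts for reads per gene, and fitted limma-voom. Versions, the filter on weak genes, the strand setting and the scaling were not given in the sources used here. Both deposited tables, one for each genotype, hold fitted log2 values (mean log2 CPM, log2 fold change and its standard error), uncorrected and adjusted p-values, and scores (moderated t and joint F) made by the authors in 1 joint fit. These columns are the authors' own comparisons and are the only values given. The fold change is listed as VEH minus CORT by the names of the comparisons, and its sign was turned here, so the direction rests on those names. The study describes Tnnt1 as upregulated under CORT in BDNF het-Met mice, whereas it was lower here (-0.81 ± 0.29). The study also places Tnnt1 in a co-expression module whose DEGs it describes as higher under vehicle in those mice. The standard error printed is the log2 fold change over the moderated t, and confidence intervals use the 10.91 total degrees of freedom.

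The difference between genotypes and the mean effect were computed from both fold changes and standard errors, with a two-sided t test at those degrees of freedom and Benjamini-Hochberg adjustment over all 17564 genes, in Python 3.11.15 with numpy 2.4.6, pandas 2.3.3 and scipy 1.17.1. The steps were tested on simulated data. DEGs needed a fold change above 1.3 and an uncorrected p under 0.05, the rule of the study. "Passed" without further words means the latter alone. Alternatives were other thresholds, the ordinary standard error, and fold changes centred by the median of their expression quintile. Coordinates, exon lengths and overlaps are from GENCODE M21 on GRCm38, matched by Ensembl identifier for 17557 genes, and levels per kilobase use the summed exon length. With blastn 2.17.0 no member shared a same-strand stretch of 75 bases at 98% identity with another gene. Every member was named. From the other lists, names were drawn from genes with a mean effect, DEGs and at most 2 of the most strongly expressed others per list. Exceptions were the 3 D-box relatives and the genes marked as chosen after their values were seen. Besides Sphk2 and Thra, D930015M05Rik shared 295 exon bases with Cry2 (4.67% of its own), on the opposite strand. Gm45355, which was not measured, shared 33 with Arntl. Camta1 overlapped Per3, and Gm43658 and Ube2n-ps1 overlapped Clock, with 0 shared exon bases. Camta1 passed as higher by the mean effect (0.20 ± 0.06). The members and lists were chosen with earlier results of these data known. One further gene was taken out of the lists and is not reported here.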

Additional observations from a re-analysis of the deposited data

How the results depend on the processing

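No member passed in WT as a DEG, and 2 did with no minimum fold change, both as deposited and centred. In BDNF het-Met 1 member was a DEG, 5 passed with no minimum fold change, as deposited or centred, and 3 (Clock, Per1 and Dbp) with no minimum and the ordinary standard error. Of all genes 569 were DEGs there. With no minimum 2317 passed as deposited, 2111 centred and 2096 with the ordinary standard error. With an adjusted p, 0 members passed in BDNF het-Met and 0 by the mean effect, as did 0 and 13 of all genes. The mean effect passed for 4 members, for 3 (Clock, Nr1d2 and Dbp) with the ordinary standard error and for 3 (Per1, Nr1d2 and Dbp) after centring. The alternatives that drop the minimum together with another choice were added after seeing the data. No member differed between genotypes under any alternative run, while 424 of all genes did as deposited, 401 centred and 601 with the ordinary standard error. Of 30 single fold changes, 28 kept their sign and side of the threshold after centring and 25 with the ordinary standard error. The exceptions after centring were Clock by the mean effect and Cry2 in BDNF het-Met, which changed sign to -0.021 and passed in neither case. With the ordinary standard error Dbp in WT lost its call, as did Nr1d2 in each genotype, Nr1d1 in BDNF het-Met and Per1 by the mean effect. No paired analysis was possible because the tables hold fitted values and none per library, and for the same reason no replicate could be left out. No member passes correction for all genes, and 3 pools per group at most limit what can be seen.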

Other observations

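What remains of the joint F after both CORT contrasts reflects a contrast between genotypes and has no sign and no p. Among the members it was largest for Clock, at 2.42, above 87.8% of all genes. Cry2, which lies 17.2 Mb from Bdnf on chromosome 2, had a remainder of 0.155, above 31.7% of all genes.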
